A study of Mus musculus with 29 samples.

Results

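Markers of hepatic stellate cells and myofibroblasts were followed in whole liver as 10 genes taken by name: Acta2, Tagln, Myl9, Des, Pdgfra, Pdgfrb, Reln, Dcn, Bgn and Lum. They are 10 of the 22180 genes that the arrays name, each represented by its row with the highest mean, and all 10 are among the 14699 genes tested. RNA came from the livers of male C57BL/6N mice, marked wt in the labels, aged 8 to 10 weeks and kept on standard diet, with 1 mouse on each of 29 arrays. Livers with the extrahepatic common bile duct ligated (BDL) were taken 1, 3, 7 and 21 days after surgery, with 5 arrays at each day. Sham-operated livers were taken at 1 day (3 arrays), 3 days (2 arrays) and 7 days (4 arrays). BDL livers of day 21 were set against sham livers of day 7, so time after surgery and ligation cannot be told apart in that comparison. All animals had surgery, none is labelled as unoperated, and replicate numbers below follow the order of deposition only. Ligation blocks bile flow from the whole liver, and RNA of whole tissue holds hepatocytes, bile duct cells, endothelium, immune cells and mesenchyme together.

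Hepatic stellate cells lie between hepatocytes and the sinusoidal endothelium, where they store vitamin A in the quiescent state. After injury they lose that store, divide, contract and secrete matrix, and they are then called myofibroblasts; fibroblasts around the portal tracts are another source of myofibroblasts when bile flow is blocked. Acta2 encodes alpha smooth muscle actin, the classical myofibroblast marker; Tagln encodes the actin-binding protein transgelin, and Myl9 a regulatory light chain of non-sarcomeric myosin. Des encodes the intermediate filament protein desmin, which marks rodent stellate cells and also all muscle cells. Pdgfra and Pdgfrb encode the receptors for platelet-derived growth factor (PDGF), a mitogen of stellate cells. Reln encodes reelin, a secreted glycoprotein made by stellate cells in liver, and Dcn, Bgn and Lum encode the small leucine-rich proteoglycans decorin, biglycan and lumican, which bind collagen fibrils.

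Promoters are shown for the contractile genes Acta2 and Myl9 and for Des, because serum response factor drives smooth muscle genes through the CArG box, a run of A or T bases between CC and GG, and because Acta2 passed the test below at days 7 and 21 while Myl9 and Des did not. Each sequence is 250 bases before to 50 bases after the start of the gene in RefSeq, on build GRCm38.p6, read 5′ to 3′ on the strand of the gene. Capitals mark CArG boxes with at most 1 departing base. Acta2 lies at chr19:34255324-34255623 on the minus strand, Myl9 at chr2:156775214-156775513 on the plus strand and Des at chr1:75360042-75360341 on the plus strand.
Acta2: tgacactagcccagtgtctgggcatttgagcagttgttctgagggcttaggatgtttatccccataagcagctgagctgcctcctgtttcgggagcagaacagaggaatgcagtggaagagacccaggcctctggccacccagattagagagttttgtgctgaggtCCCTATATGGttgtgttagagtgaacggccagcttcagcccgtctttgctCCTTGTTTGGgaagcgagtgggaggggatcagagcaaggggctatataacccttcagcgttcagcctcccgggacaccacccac
Myl9: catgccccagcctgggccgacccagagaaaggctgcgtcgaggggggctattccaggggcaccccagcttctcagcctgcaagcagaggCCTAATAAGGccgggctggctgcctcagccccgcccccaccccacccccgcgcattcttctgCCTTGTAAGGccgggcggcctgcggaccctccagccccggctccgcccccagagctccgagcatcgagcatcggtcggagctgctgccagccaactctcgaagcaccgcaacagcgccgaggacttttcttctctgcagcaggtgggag
Des: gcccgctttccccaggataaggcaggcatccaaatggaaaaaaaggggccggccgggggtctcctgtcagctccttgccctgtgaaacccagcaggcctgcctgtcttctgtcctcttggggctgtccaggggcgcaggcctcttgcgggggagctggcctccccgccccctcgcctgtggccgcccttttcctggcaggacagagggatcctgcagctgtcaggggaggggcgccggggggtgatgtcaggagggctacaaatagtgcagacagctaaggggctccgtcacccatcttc
In Acta2 the capitals stand at positions -84 to -75 and -34 to -25 relative to the start, and both depart from the CArG box at 1 base. In Myl9 the stretch at -161 to -152 is an exact CArG box and that at -99 to -90 departs at 1 base. The Des window holds neither form. An exact CArG box was found on either strand in 535 of 32851 windows of this length (1.63%), and a box with at most 1 departing base in 6936 (21.1%). A match is a description of these letters, not a bound site.

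Some arrays stood apart before any comparison was made. In 4 arrays of day 1 (BDL replicates 2 and 3, sham replicates 1 and 3) log2 values spread less over genes (SD 1.957 to 1.982, against 2.058 to 2.169 in the other arrays), and 71 small nucleolar RNA genes averaged 9.019 to 9.493, against 7.723 to 8.528. Sham day 7 replicate 1 had a high value of Col1a1, the alpha 1 chain of type I collagen, at 10.43 log2 units, with 6.16 to 7.38 in the other 3 sham arrays of that day. Its summed level of 16 fibroblast activation genes was 118.8, inside the BDL day 7 range of 117.7 to 123.5, while its summed level of 10 cholangiocyte markers was 55.4, below the BDL day 7 range of 62.3 to 65.5. Its summed level of 8 macrophage markers was 61.6, within that of the other sham arrays of day 7 (60.2 to 62.7) and below the BDL day 7 arrays (70.8 to 73.5). Its summed level of 8 mesothelial markers, 45.4, was the highest of all 29 arrays, with 40.1 to 41.9 in the other sham arrays of day 7. Among these markers Gpm6a was at 6.53, with 5.46 to 5.90 in those arrays, and Msln at 5.53, with 5.33 to 5.48. Upk3b was at 6.26, with 5.75 to 6.27 in those arrays. The other markers of that list are not given singly, and a part of mesothelial RNA in this array was not tested. BDL day 21 replicate 2 had a summed level of 10 skeletal muscle markers of 65.7, with the median of its group at 50.4. Where a call changes without sham day 7 replicate 1 or BDL day 21 replicate 2, this is said beside it.

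**Figure D1:**
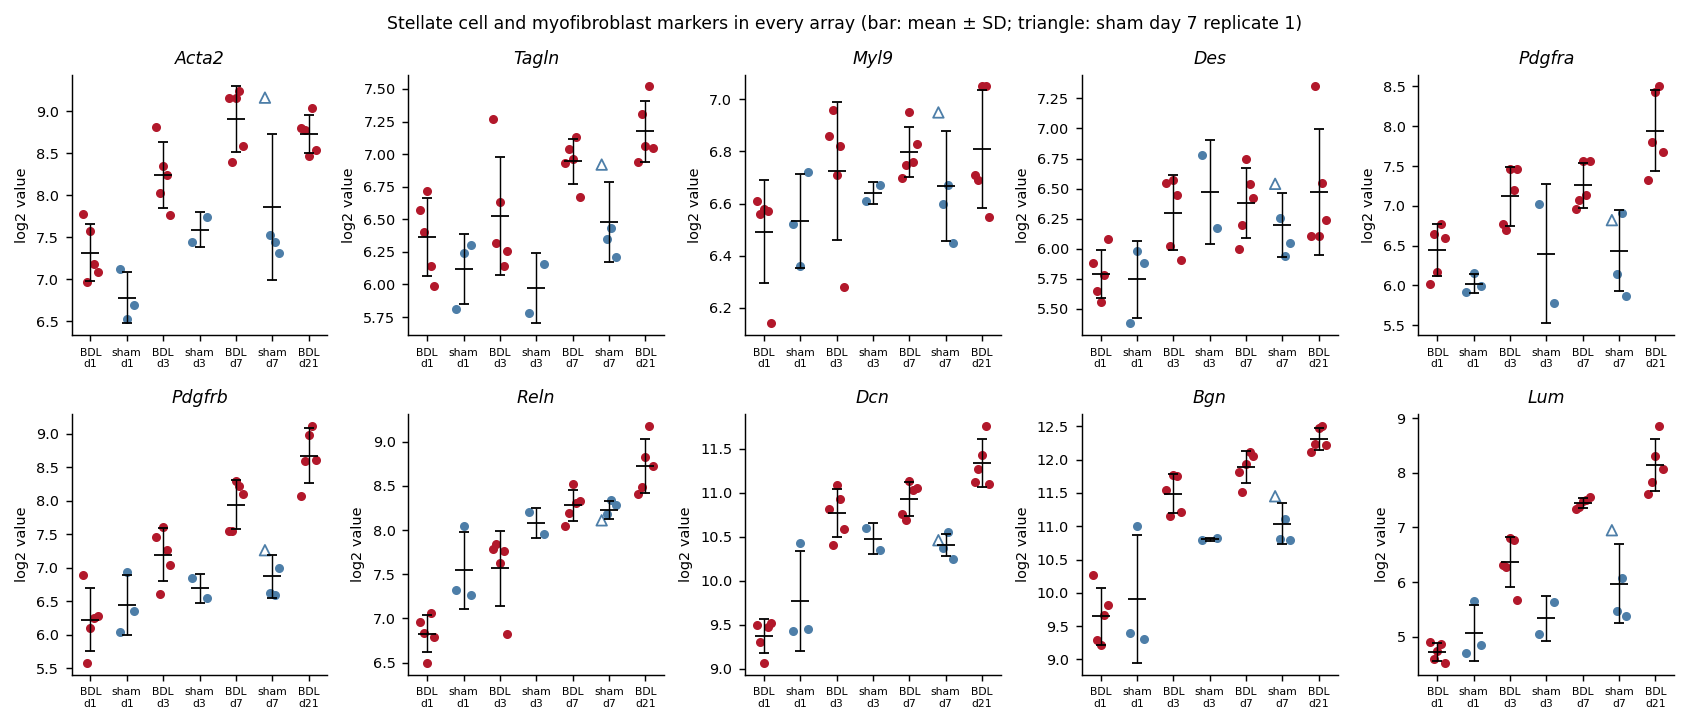
Log2 value (vertical axis, RMA scale) of each of the 10 genes in every array, by treatment and day along the horizontal axis. Red points are BDL arrays and blue points sham arrays, bars give mean ± SD, and the open triangle is sham day 7 replicate 1; Lum reached 7.62 to 8.86 in BDL livers of day 21, above all sham arrays, while Myl9 groups overlapped.

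The 10 genes were called with limma at an adjusted p under 0.05, over all 14699 genes and all 7 groups in 1 fit. They were chosen with earlier results of these data known, so the shares over all genes beside their counts are a description only. At day 1, 0 of 10 genes were higher in BDL livers and 1, Reln, was lower, where 8.52% of all genes tested were higher and 4.8% lower. At day 3, 1 of 10 (Lum) was higher and 0 lower, against 6.47% higher and 3.69% lower over all genes. By day 7, 6 of 10 were higher (Acta2, Pdgfra, Pdgfrb, Dcn, Bgn and Lum) and 0 lower, against 14.2% and 4.97% of all genes. BDL livers of day 21 against sham livers of day 7 gave 8 of 10 higher and 0 lower, against 17.3% and 7.9% of all genes. Myl9 and Des did not pass in any of these 4 comparisons. The median log2 fold change of the 10 genes was -0.13 at day 1, 0.53 at day 3, 0.67 at day 7 and 0.90 at day 21, while the median over all genes tested stayed between 0.02 and 0.03. Arrays of the 2 groups did not overlap for Reln downward at day 1 (5.53% of all genes downward), for Acta2, Bgn and Lum upward and Reln downward at day 3 (15.1% and 11.3%), for 5 genes upward at day 7 (14.2%) and for 7 upward at day 21 (17.0%). In whole liver, fewer or more cells of a type and less or more RNA per cell cannot be told apart. Without sham day 7 replicate 1 the counts were 6 at day 7, where Tagln gained the call and Dcn lost it (adjusted p = 0.0504), and 7 at day 21, where Reln lost it (adjusted p = 0.102).

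**Figure D2:**
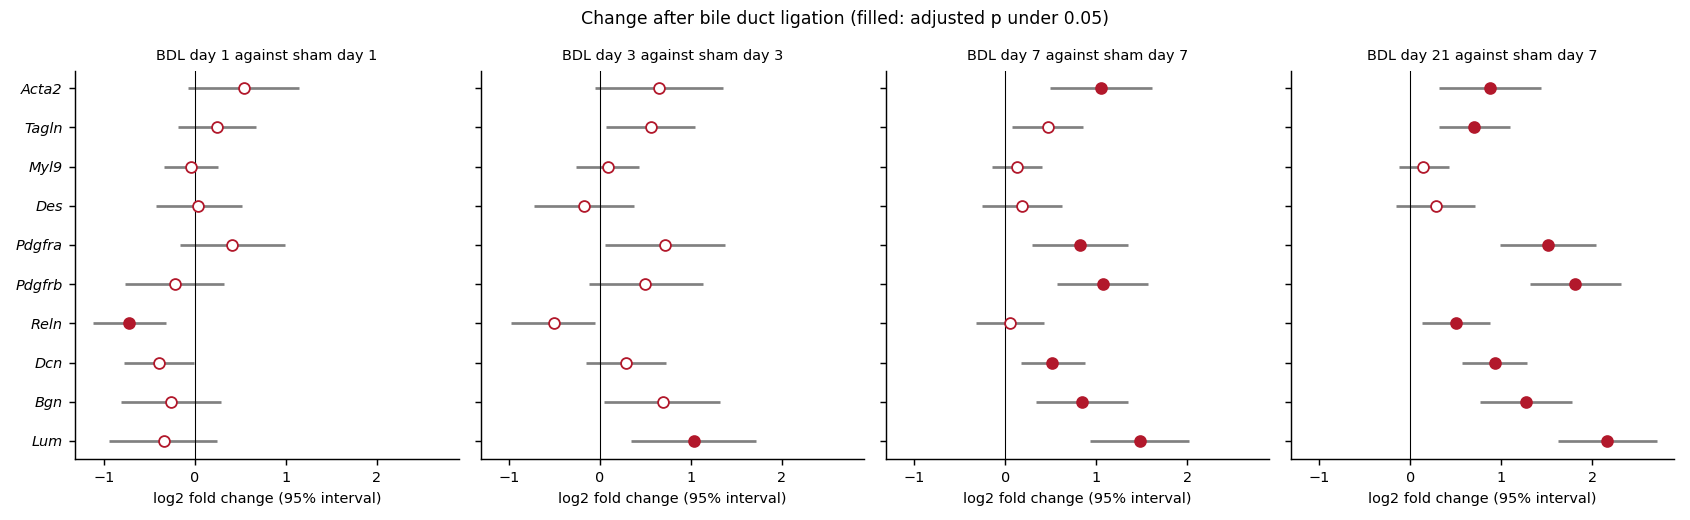
Log2 fold change of BDL over sham (horizontal axis) with its 95% interval from limma for the 10 genes in the 4 comparisons with sham. Filled points passed an adjusted p of 0.05; the number of filled points to the right of 0 is 0 at day 1, 1 at day 3, 6 at day 7 and 8 at day 21.

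Acta2 measured 9.15, 8.39, 9.16, 9.24 and 8.59 log2 units in the 5 BDL livers of day 7, against 9.16, 7.53, 7.44 and 7.31 in the 4 sham livers. All 5 ligated livers lay above 3 of the sham livers, and sham replicate 1 lay among the ligated ones. The difference was 1.05 ± 0.27 log2 units (SE), a 2.07-fold rise (limma, adjusted p = 0.00635), and it came to 1.48 without that sham array. At day 21 the BDL livers gave 8.80, 8.78, 8.47, 9.04 and 8.54, again above 3 of the 4 sham livers. The change at day 21 was 0.87 ± 0.27 (limma, adjusted p = 0.0189), or 1.30 without sham day 7 replicate 1. It was called in 5 of the 9 fits that left out 1 array, with 0.69 and an adjusted p of 0.0955 without sham day 7 replicate 4. Fitting only the BDL day 21 and sham day 7 arrays, replicate 1 included, gave an adjusted p of 0.0592. Earlier, the BDL livers of day 3 gave 8.81, 8.03, 8.35, 8.24 and 7.76, all above the sham values of 7.44 and 7.74, but the difference of 0.65 ± 0.34 did not pass (limma, adjusted p = 0.265). On day 1 the ligated livers ranged from 6.97 to 7.78 and the sham livers from 6.53 to 7.12, and the groups overlapped.

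Tagln passed at day 21 and not at day 7. BDL livers of day 21 had 6.94, 7.31, 7.06, 7.52 and 7.05 log2 units, against 6.92, 6.35, 6.43 and 6.21 in sham livers of day 7. The groups did not overlap, with sham replicate 1 close to the lowest ligated liver. The difference was 0.70 ± 0.19, or 1.62-fold (limma, adjusted p = 0.00707). At day 7 the ligated livers spanned 6.67 to 7.13 and the difference was 0.47 ± 0.19 (limma, adjusted p = 0.0895); without sham day 7 replicate 1 it was 0.61 with an adjusted p of 0.0316.

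Myl9, the myosin light chain gene whose promoter holds the exact CArG box, had 6.70, 6.75, 6.95, 6.76 and 6.83 log2 units in BDL livers of day 7, against 6.95, 6.60, 6.67 and 6.45 in sham livers. Its differences were 0.13 ± 0.13 at day 7 and 0.14 at day 21, with 95% intervals of -0.14 to 0.41 and -0.13 to 0.42 (limma, adjusted p = 0.565 and 0.493). The lowest of all Myl9 values, 6.14, was in BDL day 1 replicate 5, and all 7 groups of Myl9 overlapped with their neighbour in order of mean.

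Des showed no call either. Its values were 6.00, 6.20, 6.75, 6.54 and 6.42 log2 units in BDL livers of day 7, against 6.54, 6.26, 5.94 and 6.05 in sham livers, a difference of 0.18 ± 0.21 (limma, adjusted p = 0.617). In BDL livers of day 21 Des had 6.11, 7.35, 6.11, 6.55 and 6.24, and the value of 7.35 came from replicate 2. That array also had 9.50 for Acta1, skeletal muscle actin, where the other 4 arrays of its group had 5.75 to 5.93. The day 21 difference of Des was 0.28 ± 0.21 (limma, adjusted p = 0.382) and 0.06 without that replicate, and the part of muscle RNA in it was not tested. The 2 sham livers of day 3 had 6.78 and 6.17, so that the highest group mean of Des, 6.48, was a sham group.

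Both PDGF receptor genes passed against sham livers at day 7 and day 21 and not at days 1 and 3. Pdgfrb had 7.54, 7.55, 8.29, 8.22 and 8.10 log2 units in BDL livers of day 7, against 7.26, 6.62, 6.59 and 7.00 in sham livers, and 8.07, 8.59, 8.98, 9.12 and 8.61 in BDL livers of day 21. No ligated liver of either day overlapped with the sham livers. The differences were 1.07 ± 0.24 at day 7 (limma, adjusted p = 0.00194) and 1.81 ± 0.24 at day 21, a 3.5-fold rise (limma, adjusted p = 1.76e-06). Both kept their call without any of the 9 arrays of each comparison in turn. At day 1 Pdgfrb gave 6.89, 5.58, 6.10, 6.25 and 6.28 in BDL livers and 6.04, 6.93 and 6.35 in sham livers, a difference of -0.22 ± 0.27 (limma, adjusted p = 0.663).

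Pdgfra, the gene of the alpha receptor, had 6.96, 7.07, 7.56, 7.13 and 7.56 log2 units in BDL livers of day 7, against 6.82, 6.14, 6.91 and 5.87 in sham livers, and 7.32, 7.80, 8.43, 8.50 and 7.67 in BDL livers of day 21. The lowest ligated liver of day 7 was only just above the highest sham liver. The change was 0.82 ± 0.26 at day 7 (limma, adjusted p = 0.0234) and 1.51 ± 0.26 at day 21, or 2.85-fold (limma, adjusted p = 5.26e-05). The day 7 call was lost in 4 of the 9 fits that left out 1 array, with adjusted p up to 0.12 without sham day 7 replicate 4. The 2 sham livers of day 3, at 7.02 and 5.78, were the highest and the lowest of all 9 sham livers. The day 3 difference was 0.72 ± 0.32 (limma, adjusted p = 0.174), with 0.10 without sham replicate 2 and 1.33 (adjusted p = 0.0367) without sham replicate 1.

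The 4 PDGF ligand genes were also measured. Pdgfa, Pdgfb and Pdgfc passed upward at day 7 and all 4, Pdgfd included, in BDL livers of day 21 against sham livers of day 7. The shares of all genes that were higher were 14.2% and 17.3%. Pdgfb averaged 6.51 at day 7 and 6.77 at day 21 in BDL livers, against 5.70 in sham livers (log2 fold changes 0.81 ± 0.14 and 1.07 ± 0.14; limma, adjusted p = 0.000104 and 1.07e-06). Pdgfc differed by 0.84 ± 0.23 and 1.40 ± 0.23 (limma, adjusted p = 0.00963 and 3.8e-05), and Pdgfa by 0.76 ± 0.13 and 0.64 ± 0.13 (limma, adjusted p = 7.93e-05 and 0.000368). Pdgfd differed by 0.40 ± 0.18 at day 7 (limma, adjusted p = 0.115), and by 0.54 without sham day 7 replicate 1, where it passed (adjusted p = 0.0419).

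Reln was the gene called at day 1, when its values were 6.96, 6.84, 6.50, 7.06 and 6.79 log2 units in BDL livers, against 7.32, 8.05 and 7.27 in sham livers. All ligated livers lay below all sham livers. Reln fell by 0.72 ± 0.20 log2 units after BDL (limma, adjusted p = 0.015). Without sham day 1 replicate 2 the difference was -0.46 (adjusted p = 0.123), and in a fit of the day 1 arrays alone its adjusted p was 0.0662. Sham day 1 replicate 2 also had the highest Dcn and Bgn of its group and a summed level of 8 sinusoidal endothelial markers of 67.1, with 60.9 and 62.9 in the other sham arrays and 57.1 to 61.2 in BDL arrays of day 1. It was, however, the only sham array of day 1 outside the arrays that stood apart (SD 2.121, against 1.964 and 1.966 in sham replicates 1 and 3). BDL replicates 2 and 3 of day 1 also stood apart. Leaving out sham replicate 2 thus kept only sham arrays that stood apart.

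At day 3 Reln had 7.78, 7.84, 7.63, 7.76 and 6.82 in BDL livers, still below the sham values of 8.20 and 7.96, a difference of -0.51 ± 0.23 that did not pass (limma, adjusted p = 0.169). By day 7 the groups lay together, with 8.05, 8.19, 8.52, 8.31 and 8.33 in BDL livers and 8.11, 8.18, 8.34 and 8.28 in sham livers (difference 0.05 ± 0.18, 95% interval -0.32 to 0.43; limma, adjusted p = 0.882). BDL livers of day 21 had 8.41, 8.49, 8.83, 9.18 and 8.72, all above the sham livers, and the difference was 0.50 ± 0.18 (limma, adjusted p = 0.044). That call held in 2 of the 9 fits that left out 1 array, with differences of 0.39 to 0.58. Of the genes through which reelin signals in neurons, Dab1, its intracellular adaptor, differed by 0.33 ± 0.13 at day 7 and 0.34 ± 0.13 at day 21 (limma, adjusted p = 0.0787 and 0.0613). Without sham day 7 replicate 1 Dab1 passed at both days, with 0.43 each (adjusted p = 0.0326 and 0.0241). The receptor gene Lrp8 differed by -0.10 ± 0.10 and -0.15 ± 0.10 (limma, adjusted p = 0.582 and 0.32).

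Lum had the largest difference of the 10 genes at days 7 and 21. At day 7 it measured 7.33, 7.37, 7.48, 7.50 and 7.56 log2 units in BDL livers, against 6.95, 5.47, 6.08 and 5.39 in sham livers. The ligated livers sat within a narrow band above every sham liver, and the highest sham liver was again replicate 1. The difference was 1.48 ± 0.27, or 2.78-fold (limma, adjusted p = 0.000163), and 1.80 without that array. In BDL livers of day 21 Lum had 7.62, 7.84, 8.30, 8.86 and 8.06, a difference of 2.16 ± 0.27 or 4.48-fold (limma, adjusted p = 4.27e-07). At day 3 its values were 6.31, 6.27, 6.81, 6.77 and 5.68 in BDL livers and 5.05 and 5.63 in sham livers. The groups of day 3 did not overlap, by a margin set by the lowest ligated and the highest sham liver, and the difference was 1.03 ± 0.33 (limma, adjusted p = 0.0465). It held in 2 of the 7 fits that left out 1 array and reached an adjusted p of 0.397 without sham day 3 replicate 1. On day 1 Lum was low throughout, around the filter level of 5, at 4.53 to 4.91 in BDL livers and 4.71 to 5.66 in sham livers.

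Dcn had 10.76, 10.69, 11.13, 11.03 and 11.05 log2 units in BDL livers of day 7, against 10.46, 10.37, 10.55 and 10.25 in sham livers, and 11.12, 11.27, 11.43, 11.76 and 11.10 in BDL livers of day 21. Neither ligated group overlapped with the sham livers. The differences were 0.52 ± 0.17 at day 7 (limma, adjusted p = 0.0321) and 0.93 ± 0.17 at day 21, or 1.9-fold (limma, adjusted p = 0.000154). The day 7 call held in 3 of the 9 fits that left out 1 array, where the difference stayed between 0.47 and 0.58, and the day 21 call in 9 of 9.

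Bgn had 11.82, 11.51, 11.93, 12.12 and 12.05 log2 units in BDL livers of day 7, against 11.45, 10.81, 11.11 and 10.79 in sham livers, and 12.12, 12.24, 12.47, 12.51 and 12.22 in BDL livers of day 21. Sham replicate 1 was again the highest sham liver, just under the lowest ligated one. The differences were 0.84 ± 0.25 at day 7 (limma, adjusted p = 0.0148) and 1.27 ± 0.25 at day 21, or 2.41-fold (limma, adjusted p = 0.000254). The day 7 call held in 7 of the 9 fits that left out 1 array, with an adjusted p of 0.0561 without sham day 7 replicate 4. A second row of the array also names Bgn, at a lower mean of 7.754 log2 units, against 11.109 for the row used. In it the day 21 difference was 0.89 (adjusted p = 1.25e-05) and the day 7 difference was 0.30 and did not pass (adjusted p = 0.136). Among 6 other tested small leucine-rich proteoglycans, 1 passed at day 7 and 1 at day 21, upward both times. This was near the share of all genes that were higher, 14.2% and 17.3%. The median log2 fold change of the list was -0.06 and 0.14. The gene that passed was Prelp, which encodes a proteoglycan of basement membranes and connective tissue. Prelp differed by 0.82 ± 0.29 and 1.66 ± 0.29 (limma, adjusted p = 0.0466 and 7.37e-05). Without sham day 7 replicate 1, or without BDL day 21 replicate 2, the counts of the list were 0 at day 7 and 2 at day 21.

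Within ligated livers the day 3 arrays were set against those of day 1. Of the 10 genes, 6 rose (Acta2, Pdgfrb, Reln, Dcn, Bgn and Lum) and 0 fell, where 12.0% of all genes rose and 6.44% fell. Bgn differed by 1.84 ± 0.23, Lum by 1.64 ± 0.25 and Dcn by 1.39 ± 0.16 log2 units (limma, adjusted p = 9.67e-06, 7.26e-05 and 3.21e-06), and for these 3 genes no array of day 3 overlapped with one of day 1, as for 6.55% of all genes upward. All 8 sinusoidal endothelial markers rose between the same groups, with a median of 1.15, and the 22 tested stellate cell genes gave 11 higher and 0 lower. Their part in the result was not tested. Without the arrays of day 1 that stood apart, 4 of 10 rose, with Acta2 at 0.89 (adjusted p = 0.0717) and Pdgfrb at 0.72 (adjusted p = 0.0631) no longer past the threshold. In the second row of Bgn the difference was 0.38 (limma, adjusted p = 0.04). The day 1 values of Lum, 4.53 to 4.91, lay below the filter level of 5.

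From day 3 to day 7 in ligated livers, 2 of 10 genes rose and 0 fell, where 4.6% of all genes rose and 1.1% fell. Lum rose by 1.08 ± 0.25 (limma, adjusted p = 0.00882) and Reln by 0.72 ± 0.17 (limma, adjusted p = 0.0112). Both were higher in all 5 arrays of day 7 than in any of day 3 (5.71% of all genes upward), and the Reln call was lost (adjusted p = 0.0502) without BDL day 3 replicate 5, whose value of 6.82 lay apart from the 7.63 to 7.84 of the others. Pdgfrb differed by 0.75 ± 0.23 (limma, adjusted p = 0.0529).

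Between day 7 and day 21 in ligated livers, limma called 0 of the 10 genes and 127 of all 14699 (0.864%) in either direction. At an unadjusted p under 0.05 there were 5 of the 10 genes and 1198 of the 14699. Of the 10 differences 9 were positive, with a median of 0.42. Acta2 was the exception, at -0.18 (95% interval -0.71 to 0.35), while Pdgfrb differed by 0.74 (0.26 to 1.21), Pdgfra by 0.69 (0.19 to 1.19) and Lum by 0.69 (0.17 to 1.20). Lum was higher in all 5 livers of day 21 than in any of day 7 (1.67% of all genes upward).

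Sham livers differed by day as well. Sham livers of day 1 against sham livers of day 7 gave 0 of 10 genes higher and 2 lower, where 1.15% of all genes were higher and 2.96% lower. Acta2 averaged 6.78 ± 0.30 at day 1 and 7.86 ± 0.87 at day 7 (SD, n = 3 and 4; difference -1.08 ± 0.31 (SE), limma, adjusted p = 0.0456), and Bgn differed by -1.13 ± 0.28 (limma, adjusted p = 0.0281). Without sham day 7 replicate 1, 0 of 10 were called, with Acta2 at -0.65 (adjusted p = 0.124) and Bgn at an adjusted p of 0.0643. Without the 4 day 1 arrays that stood apart, which leaves 1 sham array at day 1 that is assumed to vary like the other groups, 0 were called and Bgn stood at -0.03. Sham livers of day 3 against those of day 7 gave 0 of 10 (1 at an unadjusted p under 0.05), as for all genes, with 0 called (0.0%) and 627 at an unadjusted p under 0.05.

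Whether ligation acted differently at day 7 and day 1 was tested as an interaction in the same fit. For 3 of 10 genes the effect was larger at day 7 and for 0 smaller, against 3.48% and 0.857% of all genes. Lum had an effect of 1.48 at day 7 and -0.34 at day 1, a difference of 1.82 ± 0.39 (limma, adjusted p = 0.00738). Its day 1 values, 4.53 to 4.91 in BDL livers and 4.71 to 5.66 in sham livers, lay around the filter level of 5. This limits what its day 1 effect can show. Pdgfrb differed by 1.29 ± 0.36 and Dcn by 0.91 ± 0.26 (limma, adjusted p = 0.0369 and 0.0373). The Lum call held in 17 of 17 fits that left out 1 array, that of Pdgfrb in 6 and that of Dcn in 9. Without sham day 1 replicate 2, Dcn differed by 0.58 (limma, adjusted p = 0.127). That fit kept only sham arrays of day 1 that stood apart. Reln differed by 0.77 ± 0.27 and did not pass (limma, adjusted p = 0.107).

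To ask whether related genes changed by unequal amounts, the difference of their log2 values within each array was compared between groups in 10 exact permutation tests, two-sided, for which the smallest p with 5 and 4 arrays is 0.0159. None passed after adjustment over the 10 tests. At that smallest p a test alone could not pass this adjustment, so equal change is not concluded. The change of Lum was 1.23 above that of Dcn at day 21, in 5 of 5 ligated livers above all sham livers (exact p = 0.0159, adjusted 0.119), and 0.95 above it at day 7 (exact p = 0.0476, adjusted 0.119). The change of Bgn was 0.32 above that of Dcn at day 7 and 0.34 at day 21 (exact p = 0.0476 each, adjusted 0.119). This order depended on the row of Bgn. Its second row averaged 7.86 and 8.45 in BDL livers of days 7 and 21, against 7.56 in sham livers of day 7. That change was smaller than the 0.52 and 0.93 of Dcn at both days, and the pair was not tested with that row. The change of Des minus that of Acta2 was -0.86 at day 7 (exact p = 0.0635, adjusted 0.127). The 2 PDGF receptor genes differed by 0.25 and 0.30 in their change (exact p = 0.381 each). Without sham day 7 replicate 1 the adjusted p was 0.051 or more in each test (exact permutation). That leaves 5 and 3 arrays, for which the smallest possible p is larger, so a pass was hardly possible and no conclusion is drawn. Lum minus Dcn was then 1.26 and 1.54, and Des minus Acta2 -1.18 and -0.91, for days 7 and 21.

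The genes around these markers were counted from lists, beside the 14.2% of all genes that were higher at day 7 and the 17.3% at day 21. The lists were chosen with earlier results of these data known. The shares over all genes are therefore a description, not a test of the lists. Of 15 tested fibroblast activation genes, 11 were higher in BDL livers at day 7 and 12 at day 21, and 0 lower. Col1a1 differed by 2.06 ± 0.51 and 2.71 ± 0.51, and Col3a1, the chain of type III collagen, by 2.07 ± 0.37 and 2.38 ± 0.37 (limma, adjusted p = 0.00394, 0.000163, 0.000133 and 1.34e-05). Timp1, an inhibitor of matrix metalloproteinases, averaged 6.48 and 7.06 log2 units in BDL livers of days 7 and 21, against 4.61 in sham livers (limma, adjusted p = 3.04e-06 and 2.11e-08). The list medians were 0.89 and 1.31, and 1.26 and 1.57 without sham day 7 replicate 1, with the same counts.

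For the 2 lists that follow, the shares over all genes were 14.2% higher and 4.97% lower at day 7, and 17.3% and 7.9% at day 21. Of 17 tested portal fibroblast genes, 4 were higher at day 7 and 10 at day 21, and 0 lower. Mgp, matrix Gla protein, differed by 1.51 ± 0.17 and 1.45 ± 0.17, and Eln, elastin, by 1.12 ± 0.20 and 1.31 ± 0.20 (limma, adjusted p = 3.75e-07, 2.8e-07, 0.000145 and 1.16e-05). Without sham day 7 replicate 1 the counts were 9 at day 7 and 11 at day 21. Of 22 tested stellate cell genes, 7 were higher and 3 lower at day 7, and 8 higher and 4 lower at day 21; without sham day 7 replicate 1, 6 were higher at each day, with 3 and 4 lower. Ednrb, the endothelin B receptor gene, Cygb, the stellate cell globin, and Vim, vimentin, were higher, at 0.95 ± 0.19, 0.97 ± 0.23 and 1.39 ± 0.20 at day 7 (limma, adjusted p = 0.000447, 0.00341 and 1.01e-05). Hhip, which encodes a protein that binds hedgehog ligands, was lower, at 4.38 and 4.01 log2 units in BDL livers of days 7 and 21, against 5.23 in sham livers, around the filter level of 5 (limma, adjusted p = 0.00795 and 0.000162).

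Of 19 tested smooth muscle contractile genes, 7 were higher at day 1, 7 at day 3, 10 at day 7 and 9 at day 21, and 0 lower. Among all genes tested, 8.52%, 6.47%, 14.2% and 17.3% were higher at these days. The median log2 fold change of the list was -0.02, 0.36, 0.36 and 0.3. Flna, filamin A, differed by 1.55 ± 0.15 and 1.77 ± 0.15, Tpm1, a tropomyosin, by 1.03 ± 0.14 and 1.18 ± 0.14, and Cnn2, a calponin, by 0.82 ± 0.16 and 0.97 ± 0.16 (limma, adjusted p = 0.00036 or lower for each). These genes are named for their large changes and do not stand for the list. The summed level of the 20 measured genes was 138.2 in sham day 7 replicate 1, with 132.3 to 133.5 in the other sham arrays of that day.

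Markers of other cells moved with the same groups. All 9 tested cholangiocyte markers and all 8 macrophage markers were higher at day 7 and at day 21. The summed level of the 10 measured cholangiocyte markers was 62.3 to 65.5 in BDL livers of day 7 and 65.1 to 69.4 in those of day 21, against 52.9 to 55.4 in sham livers of day 7. For the 8 macrophage markers it was 70.8 to 73.5 and 71.4 to 76.7, against 60.2 to 62.7. Muc1, a mucin of duct cells, differed by 1.47 ± 0.19 at day 7, and Cd68, a lysosomal protein of macrophages, by 2.07 ± 0.23 (limma, adjusted p = 2.72e-06 and 2.73e-07). Of 6 mesothelial, 8 skeletal muscle and 3 exocrine pancreas markers tested, 0 were called at day 7 or day 21, and the sums of the 7 measured hepatocyte markers were 92.8 to 93.3 and 93.1 to 93.4 in BDL livers, against 92.2 to 93.0 in sham livers. The part of these cells in the changes of the 10 genes was not tested.

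**Figure D3:**
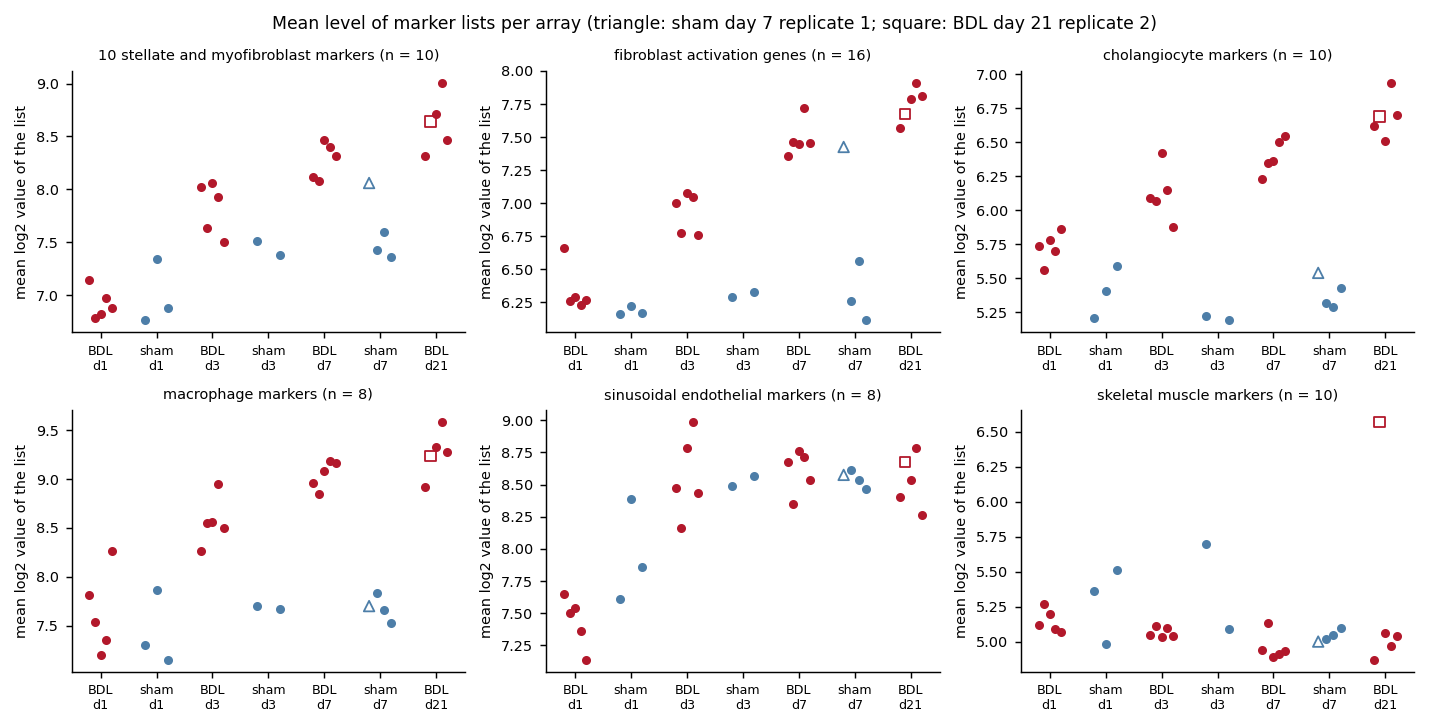
Mean log2 value over the measured genes of 6 lists (vertical axis) in every array, by treatment and day. The triangle is sham day 7 replicate 1, which lies at the BDL level for fibroblast activation genes and at the sham level for cholangiocyte and macrophage markers; the square is BDL day 21 replicate 2, which stands apart in skeletal muscle markers.

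How the 10 genes varied among themselves is described over the 29 arrays, which share the design, so that much of each correlation comes from group means. Pearson's r for the 45 pairs lay between 0.409 and 0.976, with a median of 0.688. Taken as deviations from the group means, r lay between -0.086 and 0.862, with a median of 0.38 and 2 negative pairs. Dcn and Bgn were the closest pair on both measures, at 0.976 and 0.862. Acta2 and Tagln had 0.801 over arrays and 0.614 within groups, while Acta2 and Pdgfra had 0.655 and -0.045.

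**Figure D4:**
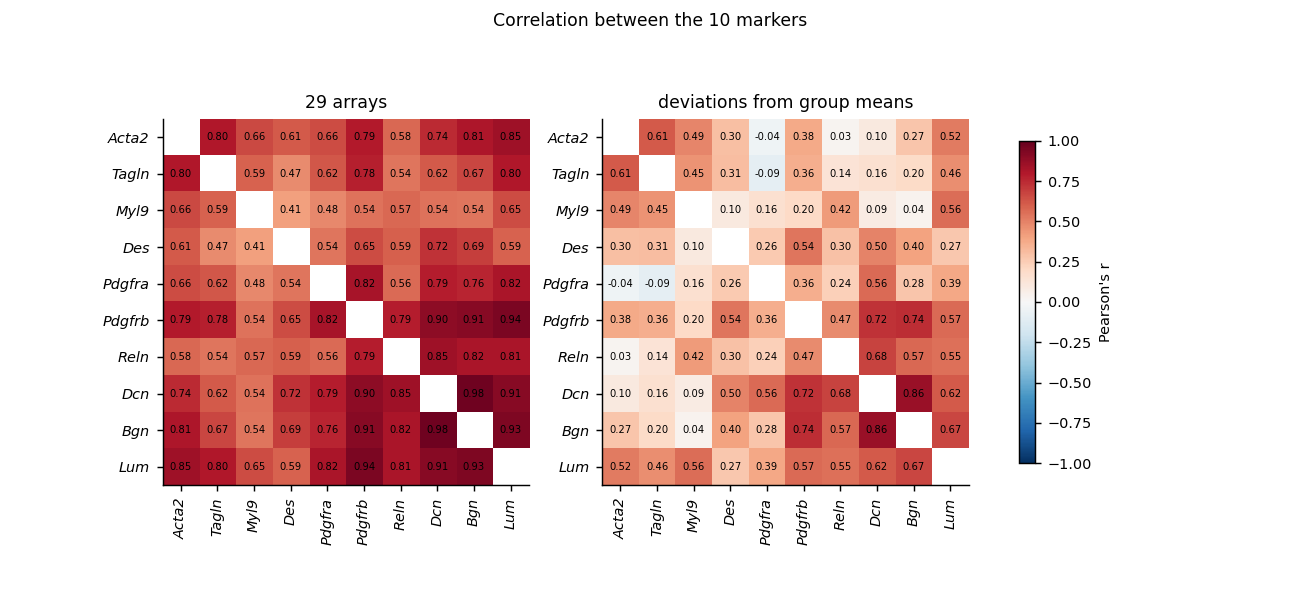
Pearson's r between the 10 genes over 29 arrays (left) and over deviations from the 7 group means (right), with colour from -1 to 1. Dcn, Bgn and Pdgfrb keep high values within groups, while Acta2 and Tagln against Pdgfra are slightly negative there.

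Outside the 10 genes, the patterns most like Acta2 over the 29 arrays were those of Col1a1 (r = 0.908), Sparc (0.903) and Col3a1 (0.896). For Pdgfrb they were Timp2 (0.964), Tbx20 (0.958) and Sparcl1 (0.950), and for Pdgfra they were Naip2 (0.900), Tanc1 (0.894) and Loxl1 (0.891). Reln was closest to Col14a1 (0.955), Itga8 (0.912) and Ddr2 (0.910). Igfbp7 was the closest gene both to Dcn (0.966) and to Bgn (0.975), and Ccdc80 was the closest to Lum (0.976). After Igfbp7 came Rgs5 (0.958) and Cdh5 (0.956) for Bgn, and Abcc9 (0.956) and Itga1 (0.953) for Dcn. The remaining genes had lower values: Tagln was closest to Tnc (0.871), Des to Sipa1 (0.771) and Myl9 to Nono (0.724).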

How the data were processed

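Total RNA of mouse liver was hybridised to 29 Affymetrix arrays, 1 per mouse. The protocol in the labels names another Affymetrix mouse array, whereas the row IDs match the annotation of the Mouse Gene 2.0 ST array, which was used here. The deposited log2 values were made with RMA in oligo 1.52.0, per the submitters' processing notes, and were used as deposited; no label or header names a genome build. Of 41345 rows, 23521 had 1 gene symbol, 1814 several and 16010 none, and 23328 of the first matched the RefSeq gene table, assembly GRCm38.p6. The row with the highest mean stood for each gene. Genes with log2 over 5 in at least 3 arrays were tested with limma 3.58.1 in R 4.3.3: 1 mean per group, all arrays, two-sided, Benjamini-Hochberg over 14699 genes, threshold 0.05. The labels give animals separate numbers but not how mice were assigned, and the number of arrays limits the precision. On simulated data, 92% of genes changed by 1 log2 unit and 100% of those changed by 2 were called for day 7 (100 genes each of 14699), and 79% and 99% for day 3. The 10 genes and all gene lists were chosen with earlier results of these data known. Genes named from other lists are up to 4 per list with the largest change past the threshold at day 7 or 21, and 3 genes per member by correlation, of which predicted genes were passed over. Alternatives were the filter, the row per gene, cyclic loess, the variance model, the arrays fitted, all 9 sham arrays as 1 group, the 4 day 1 arrays that stood apart, and leaving out each array. The second row of Bgn and the list counts and list gene values without single arrays were added after seeing the data.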

Additional observations from a re-analysis of the deposited data

Results flagged for a closer look

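In 3 of 50 combinations of gene and group, 1 array lay far from the others by Dixon's test, a rule that chance meets in about 1 of 20. Acta2 was 9.16 in sham day 7 replicate 1 (gap over range 0.881, critical value 0.829). Myl9 was 6.14 in BDL day 1 replicate 5 (0.887, critical value 0.71), and Reln was 6.82 in BDL day 3 replicate 5 (0.793, critical value 0.71). The effect of ligation differed between day 7 and day 1 by the interaction test for Pdgfrb (1.29), Dcn (0.91) and Lum (1.82). Lum lay around the filter level of 5 at day 1.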

How the results depend on the processing

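Alternatives gave 1870 fold changes of the 10 genes: 1743 kept their side of the threshold and their direction where called, 83 lost a call and 44 gained one; the 34 that changed sign passed in neither setting. No paired analysis was possible because the labels give each mouse its own number and replicate numbers follow deposition order. The number of the 10 genes called at day 1 (1) was 0 with only the groups compared, 2 with the array set as a term, 3 without the 4 day 1 arrays, which leaves 1 sham array of day 1 (replicate 2), and 4 with all 9 sham arrays. At day 3 (1) it was 0 with no filter, with the intensity trend and with only the groups compared, 2 with the array term and without the 4 arrays, and 5 with all 9 sham arrays. For the interaction (3) it was 1 with no filter and 5 with the array term. For sham day 1 against sham day 7 (2) it was 1 with no filter, with cyclic loess, with the intensity trend and with the other Bgn row, 4 with the stricter filter, and 0 with only the groups compared, with the array term and without the 4 arrays. BDL day 21 against day 7 (0) gave 1 with the other Bgn row, which passed there at 0.59 (adjusted p = 0.0188). Leaving out 1 array at a time, the counts were 0 to 1 at day 1 (0 without sham replicate 2), 0 to 1 at day 3, 3 to 6 at day 7 (3 without sham replicate 2 or 4), 6 to 8 at day 21, 6 to 7 for BDL day 3 against day 1, 1 to 3 for day 7 against day 3, 0 for day 21 against day 7, 1 to 4 for the interaction, 0 to 4 for sham day 1 and 0 for sham day 3 against sham day 7. With all 9 sham arrays, pair changes passed for Bgn minus Dcn (0.56 at day 7, 0.58 at day 21), Lum minus Dcn (1.19, 1.48), Des minus Acta2 (-1.19, -0.92) and Tagln minus Acta2 at day 7 (-0.77), with adjusted p of 0.0328 or lower; the sham days then mix. Calls over all genes moved by over 1.5 times from 1958 at day 1 (704 with only the groups compared, 597 without the 4 arrays, 3198 with all 9 sham arrays), 1493 at day 3 (921, 3481 with only the groups and with all 9 sham arrays), 2819 at day 7 (4375 with all 9), 2715 for BDL day 3 against day 1 (1779 with only the groups, 1479 with the array term, 1444 without the 4), 837 for day 7 against day 3 (1284 and 1308 with the term and without the 4), 127 for day 21 against day 7 (235 with only the groups), 637 for the interaction (1076 with the term, 287 without the 4) and 604 for sham day 1 against sham day 7 (0 with only the groups, 1 with the term or without the 4). Leaving out 1 array gave down to 1268 at day 1, 668 at day 3, 1718 for BDL day 3 against day 1, 472 for day 7 against day 3, 59 for day 21 against day 7, 2 to 3040 for sham day 1 and up to 35 for sham day 3 against sham day 7. With the highest-mean row of Bgn, Bgn minus Dcn ranged over 0.26 to 0.44 at day 7 and 0.28 to 0.46 at day 21 without single arrays. The second row of Bgn changed less than Dcn at both days. The cause of these shifts was not tested.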

Other observations

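Markers of liver sinusoidal endothelium differed at the earliest time. Of 8 tested, 5 were lower in BDL livers than in sham livers at day 1 and 0 higher, with a median of -0.65. Without sham day 1 replicate 2, which kept only sham arrays of day 1 that stood apart, 1 was lower. With all arrays, 4.8% of all genes were lower and 8.52% higher at day 1. At day 21 against sham day 7, Stab1, a scavenger receptor gene, was higher (0.43 ± 0.13; limma, adjusted p = 0.015), while Oit3 and Kdr, the receptor gene for vascular endothelial growth factor, were lower (-0.53 ± 0.19 and -0.49 ± 0.18; limma, adjusted p = 0.0448 and 0.0477). The calls of Oit3 and Kdr were lost without sham day 7 replicate 1 (adjusted p = 0.0662 and 0.0779), and all 3 were lost without BDL day 21 replicate 2 (0.0588 for Stab1, 0.0757 and 0.0602). Of 5 adipocyte markers 1, Pparg, was higher at day 21 (0.58 ± 0.20, limma, adjusted p = 0.0321), where 17.3% of all genes were higher. This call was lost without sham day 7 replicate 1 (0.46, limma, adjusted p = 0.125). Of 7 hepatocyte markers, Hpx, hemopexin, was higher at day 7 (0.40 ± 0.08; limma, adjusted p = 0.000622) and Ttr, transthyretin, was lower (-0.24 ± 0.08; limma, adjusted p = 0.04), the Ttr call being lost without sham day 7 replicate 1 (adjusted p = 0.0681).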
